A study of Rattus norvegicus with 300 samples.

Results

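The proteasome subunit genes were taken by name: every gene symbol of the deposited count table made of Psma, Psmb, Psmc, Psmd, Psme, Psmf or Psmg and a number. The rule found 47 genes among 17337. They were 19 core genes (8 Psma and 11 Psmb), 20 genes of the lid, the base and their assembly (Psmc and Psmd), 4 activator genes (Psme), the inhibitor gene Psmf1, and 3 assembly chaperone genes (Psmg). RNA was sequenced from punches of frozen brain sections of male Long Evans rats, 60 days old, given 1 of 6 treatments in drinking water for 3 weeks. Control rats had water, and Maltodextrin rats had the sugar at 10 g/L. Another group had Probiotics. In the drug groups the daily dose per kg was 7.5 mg of Desipramine, 13 mg of FT and 15 mg of Bupropion. The labels do not spell out FT, and fluoxetine is the drug in the protocol that no other label names. The dose of the probiotic is stated in forms that disagree and is not printed. All 3 drugs are antidepressants that act on the uptake of monoamine transmitters. The 10 region labels were PLC, ILC, CGC, NACShell, BLA, mPOA, dorDG, venDG, Raphe and LConly, and each of the 60 groups of region and treatment held 5 libraries. Punches were pooled before extraction, with no number of rats per pool stated, and p-values therefore cover only the variation among these libraries, which may be technical.

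The 26S proteasome is the machine that takes apart proteins tagged with ubiquitin in the cytosol and nucleus. Its core particle is a barrel of alpha rings, which gate the entrance, and beta rings, which hold the catalytic sites. A regulatory particle caps the barrel. Its lid removes ubiquitin chains. Its base, a ring of ATPases with scaffold proteins and ubiquitin receptors, unfolds the substrate and feeds it in. Interferon makes cells swap the catalytic subunits Psmb5, Psmb6 and Psmb7 for Psmb8, Psmb9 and Psmb10, which gives the immunoproteasome, and raises the Psme1 and Psme2 cap. In the brain, the proteasome turns over synaptic proteins, and microglia carry much of the immunoproteasome. In mammals, the transcription factor encoded by Nfe2l1 raises subunit genes together through antioxidant response elements when proteasome capacity is short, and interferon acts through interferon-stimulated response elements.

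Promoters of 4 catalytic subunit genes are shown, Psmb5 and Psmb6 of the constitutive kind and Psmb8 and Psmb10 of the interferon-inducible kind, because they hold a match to a motif searched. The sequences are RefSeq's for the rat build GRCr8, from 250 bases before to 50 bases after the annotated start, while the counts were made on rn6. Of the 47 members, 42 matched a promoter. Capitals mark the antioxidant response element core TGACNNNGC in Psmb5 and Psmb6, and the interferon-stimulated response element core (GAAA, any 2 bases, GAAA) in Psmb8 and Psmb10, each searched on both strands. The former places are chr15:32047330-32047629, minus strand for Psmb5 and chr10:55737638-55737937, plus strand for Psmb6. The latter are chr20:4656982-4657281, minus strand for Psmb8 and chr19:50743243-50743542, minus strand for Psmb10.
Psmb5: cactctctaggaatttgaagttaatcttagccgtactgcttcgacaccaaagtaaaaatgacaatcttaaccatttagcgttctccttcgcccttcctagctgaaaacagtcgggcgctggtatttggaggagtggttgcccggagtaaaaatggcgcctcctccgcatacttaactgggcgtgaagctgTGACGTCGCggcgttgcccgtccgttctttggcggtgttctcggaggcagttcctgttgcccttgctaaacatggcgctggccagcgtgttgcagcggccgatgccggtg
Psmb6: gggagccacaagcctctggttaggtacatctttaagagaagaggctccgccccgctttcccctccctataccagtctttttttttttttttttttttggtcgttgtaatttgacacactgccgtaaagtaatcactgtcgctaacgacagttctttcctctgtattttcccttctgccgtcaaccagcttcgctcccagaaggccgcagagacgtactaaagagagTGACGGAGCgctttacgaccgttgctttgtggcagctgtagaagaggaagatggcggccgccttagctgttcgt
Psmb8: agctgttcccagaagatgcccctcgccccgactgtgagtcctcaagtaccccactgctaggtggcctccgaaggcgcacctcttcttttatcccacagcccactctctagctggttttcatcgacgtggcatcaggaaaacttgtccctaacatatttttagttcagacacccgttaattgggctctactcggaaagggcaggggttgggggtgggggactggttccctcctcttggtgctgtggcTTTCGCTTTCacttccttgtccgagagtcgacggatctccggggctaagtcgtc
Psmb10: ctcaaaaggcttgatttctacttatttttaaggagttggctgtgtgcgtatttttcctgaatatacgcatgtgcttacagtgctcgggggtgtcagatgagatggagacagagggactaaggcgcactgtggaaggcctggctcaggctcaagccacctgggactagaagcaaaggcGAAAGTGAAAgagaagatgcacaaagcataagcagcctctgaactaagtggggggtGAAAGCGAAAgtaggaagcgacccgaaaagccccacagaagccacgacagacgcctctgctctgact
The antioxidant core was found in 8 of the 42 promoters (19%), those of Psma3, Psmb2, Psmb5, Psmb6, Psmd1, Psmd3, Psmd9 and Psme4, and in 12.1% of all 33469 promoters of the same length. The interferon core was found in 7 of 42 (16.7%), those of Psma4, Psmb3, Psmb8, Psmb10, Psmd7, Psme2 and Psmg4, and in 3.9% of all promoters. Psmb10 held 2 matches. A match describes letters and is not shown to be a bound site.

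Each library held 198260 to 18310687 counts, with a median of 9232563, and 4 Desipramine libraries held under 1000000. Some groups carried unusual marker levels. ILC libraries labelled FT held 232 ± 38.3 CPM (counts per 1e+06 counts of the library's TMM-scaled total; SD, n = 5) of Dbh, the enzyme that makes noradrenaline, and LConly libraries labelled FT held 0.595 ± 0.276, while the other 5 treatments held at most 1.38 in ILC and at least 60.8 in LConly. These libraries are called by their labels throughout. Control ILC held 29.9 ± 3.43 CPM of Slc17a7, the cortical glutamate transporter, against 264 to 417 in Maltodextrin, Bupropion, Desipramine and Probiotics. Probiotics dorDG held 29.8 ± 3.86 CPM of Slc17a7 and 30.8 ± 7.80 CPM of Prox1, a granule cell gene, against 309 to 483 and 68.2 to 85.0 CPM elsewhere. In Control BLA and venDG, the 5 MHC class II genes summed to 728 and 903 CPM, against 11.6 to 55.8 CPM in the other treatments. Tph2, which marks serotonin neurons, stood at 505 to 943 CPM in Raphe. Results over all 10 regions are therefore given with those from CGC, mPOA, NACShell, PLC and Raphe alone, called the 5 regions below, for counts of genes and for most members named. No batch is labelled, so a batch that followed treatment cannot be told apart from it.

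Summed over the group, core genes ranged from 2949.5 ± 94.4 CPM in FT BLA to 9393 ± 566 CPM in Control ILC. The 5 Control ILC libraries held 9058, 10395, 9243, 9202 and 9065 CPM of core transcripts, while Control LConly, the next group, held 6572, 6634, 6396, 6407 and 5992. These groups do not overlap, and Control ILC is the group low in Slc17a7. Lid and base genes followed the same order at both ends, with 3321 ± 137 CPM in FT BLA, 9272 ± 913 in Control LConly and 10976 ± 418 in Control ILC. Activator genes summed to 507 ± 17.6 CPM in Control ILC, 405 ± 26.5 CPM in Probiotics dorDG and 209.6 ± 8.17 CPM in Bupropion dorDG, the lowest group. Control ILC was the highest of the 60 groups for 24 of the 47 members and Probiotics dorDG for 6, while FT BLA was the lowest for 13. The matching shares of all genes were not computed, so these counts are not shown to be particular to the members. In FT BLA, Mbp, a myelin gene, stood at 53553 CPM, against 10873 to 18241 CPM in BLA of the other treatments. This is 1 gene, and other oligodendrocyte genes in BLA are not given here. Over all regions, 5 of 6 oligodendrocyte genes were lower with FT and 1 was higher. The part of cell makeup in the levels of the members was not tested. Fewer cells of a type and less RNA per cell cannot be told apart in such pooled tissue.

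**Figure D1:**
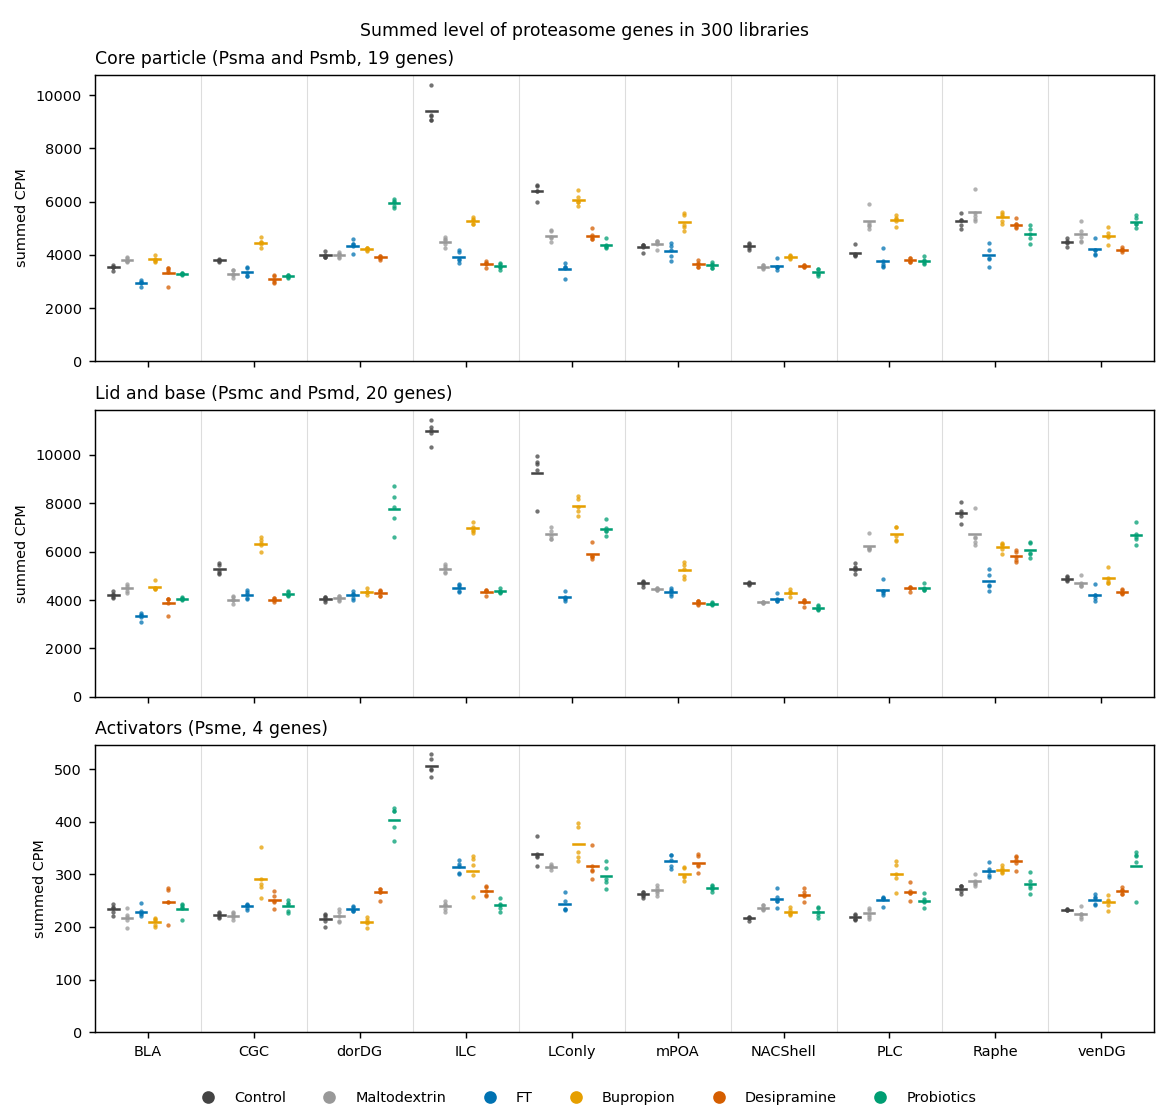
Summed level of core, lid and base, and activator genes in CPM (y axis) by region (x axis), with 1 point per library, coloured by treatment, and a short line at the mean of 5. Control ILC stands above every other group in all 3 panels, and Probiotics dorDG is second among activators.

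Differences between regions were tested in the 50 Maltodextrin libraries, in which each region was compared with the mean of the 9 others by edgeR's quasi-likelihood test. A gene was called at a Benjamini-Hochberg adjusted p under 0.05 over all genes tested, a rule kept throughout, and 46 members passed the filter on low counts; Psma8 did not. In Raphe, 37 members were higher and 2 lower, against 35.2% and 35.8% of all genes. PLC had 32 higher and 3 lower (33.9% and 33.9% of all genes), and LConly had 30 higher and 7 lower (36% and 35.2%). The median member differed by 0.28 in Raphe, 0.30 in PLC and 0.17 in LConly on the log2 scale, while the median over all genes lay within 0.03 of 0 in every region. At the other end, CGC had 3 higher and 36 lower (33.7% and 30.3%) with a median of -0.34, and NACShell had 1 higher and 40 lower (30.8% and 31.5%) with a median of -0.25. BLA had 4 higher and 26 lower (32.8% and 26.7%), and dorDG had 3 higher and 27 lower (29.8% and 31%). In mPOA 12 were higher and 19 lower (32.9% and 33.1%), in ILC 17 and 6 (31.3% and 35.4%), and in venDG 23 and 7 (33% and 28.9%), shares nearer to those of all genes. Of the lid and base genes, 18 of 20 were higher in Raphe, 18 of 20 higher in PLC and 20 of 20 lower in NACShell. Core genes went 12 higher and 2 lower in Raphe, 12 and 1 in PLC, and 0 and 14 in NACShell. In other treatments this order changed: in Control libraries PLC had 9 members higher and 28 lower, and ILC had 43 higher.

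Psmc5, a base ATPase, had its highest difference in LConly and its lowest in dorDG and venDG. Its 5 LConly libraries held 1867, 1879, 2126, 1864 and 2080.2 CPM, and its dorDG libraries 687, 723, 648, 665 and 745 CPM. Every LConly library was above every dorDG library. The fitted difference from the mean of the other regions was 1.03 ± 0.04 (log2 ± SE; adjusted p = 2.2e-31) in LConly, -0.64 ± 0.05 (adjusted p = 1.7e-18) in dorDG and -0.50 ± 0.05 (adjusted p = 1.7e-14) in venDG, by edgeR's quasi-likelihood test. In other treatments Psmc5 changed sign in LConly in FT (-0.024) and in Probiotics in dorDG (0.20) and venDG (0.57). Psmd12, a lid subunit, was highest in Raphe and lowest in NACShell. Raphe libraries held 325, 330.5, 321, 336 and 368 CPM of it and NACShell libraries 129.9, 131, 136, 129 and 143 CPM, again without overlap. Its differences were 0.88 ± 0.04 in Raphe and -0.59 ± 0.05 in NACShell (adjusted p = 4.2e-28 and 1.6e-16). Psme4, which encodes the ATP-independent cap PA200, was the 1 member called higher in NACShell (0.64 ± 0.04, adjusted p = 3.8e-19) and the lowest member in PLC (-0.60 ± 0.05, adjusted p = 1.6e-16). These values are of Maltodextrin libraries. In NACShell Psme4 differed by -0.062 in Bupropion and -0.031 in Desipramine, and in PLC by 0.047 in Probiotics.

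In mPOA, Psmb8, Psmb9, Psme1 and Psme2 were higher than in the other regions and Psmb10 was lower. Psmb9, an interferon-inducible catalytic subunit, stood at 6.82, 9.88, 10.7, 10.0 and 6.91 CPM in the mPOA libraries and at 3.37, 3.43, 3.36, 3.16 and 2.21 CPM in BLA. No BLA library reached an mPOA library. The difference of mPOA from the other regions was 1.16 ± 0.13 for Psmb9, 0.71 ± 0.06 for Psme1 and 0.68 ± 0.12 for Psmb8, with adjusted p = 2.8e-11, 2.2e-16 and 2.2e-06. All 3 differences were also positive in each of the other 5 treatments. Psme2 differed by 0.59 ± 0.05 in mPOA and Psmb10 by -0.35 ± 0.07 (adjusted p = 3.8e-17 and 8.2e-06). Psmb10 was instead called higher in PLC (0.63) and venDG (0.32). Psme1, a subunit of the interferon-inducible cap, was the lowest member in BLA (-0.54 ± 0.07, adjusted p = 2.8e-10), where Psmf1, the proteasome inhibitor gene, was the highest (0.16 ± 0.04, adjusted p = 0.0004). The Psmf1 difference in BLA was negative in each of the other 5 treatments, from -0.65 in Control to -0.024 in Desipramine. In PLC the highest member was Psmb5, the constitutive chymotrypsin-like subunit, at 0.75 ± 0.06 (adjusted p = 4.0e-16). Psmb3, a beta ring subunit without catalytic activity, was the lowest in CGC at -0.60 ± 0.06 (adjusted p = 1.5e-12). Psmd3, a lid scaffold subunit, was the lowest in ILC at -0.67 ± 0.04 (adjusted p = 3.0e-22) and the highest in venDG at 0.43 ± 0.03 (adjusted p = 1.8e-16), where Bupropion libraries gave -0.041. Psmb11, the beta subunit of thymic epithelium, led the differences in CGC (1.4 ± 0.24), ILC (0.85 ± 0.25) and dorDG (0.78 ± 0.28) and trailed in Raphe (-1.51 ± 0.37) and LConly (-1.01 ± 0.34), but it stood near 1 CPM. The call ended without Maltodextrin replicate 1 in ILC (0.48) and LConly (-0.58), and without replicate 3 in LConly (-0.74) and dorDG (0.61). Over the replicates left out in turn, the LConly value ran from -1.80 to -0.58. The sign turned in FT in ILC (-0.86) and LConly (1.11), and in Probiotics in dorDG (-0.48). Its difference in mPOA was -0.64 ± 0.33 (adjusted p = 0.082).

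**Figure D2:**
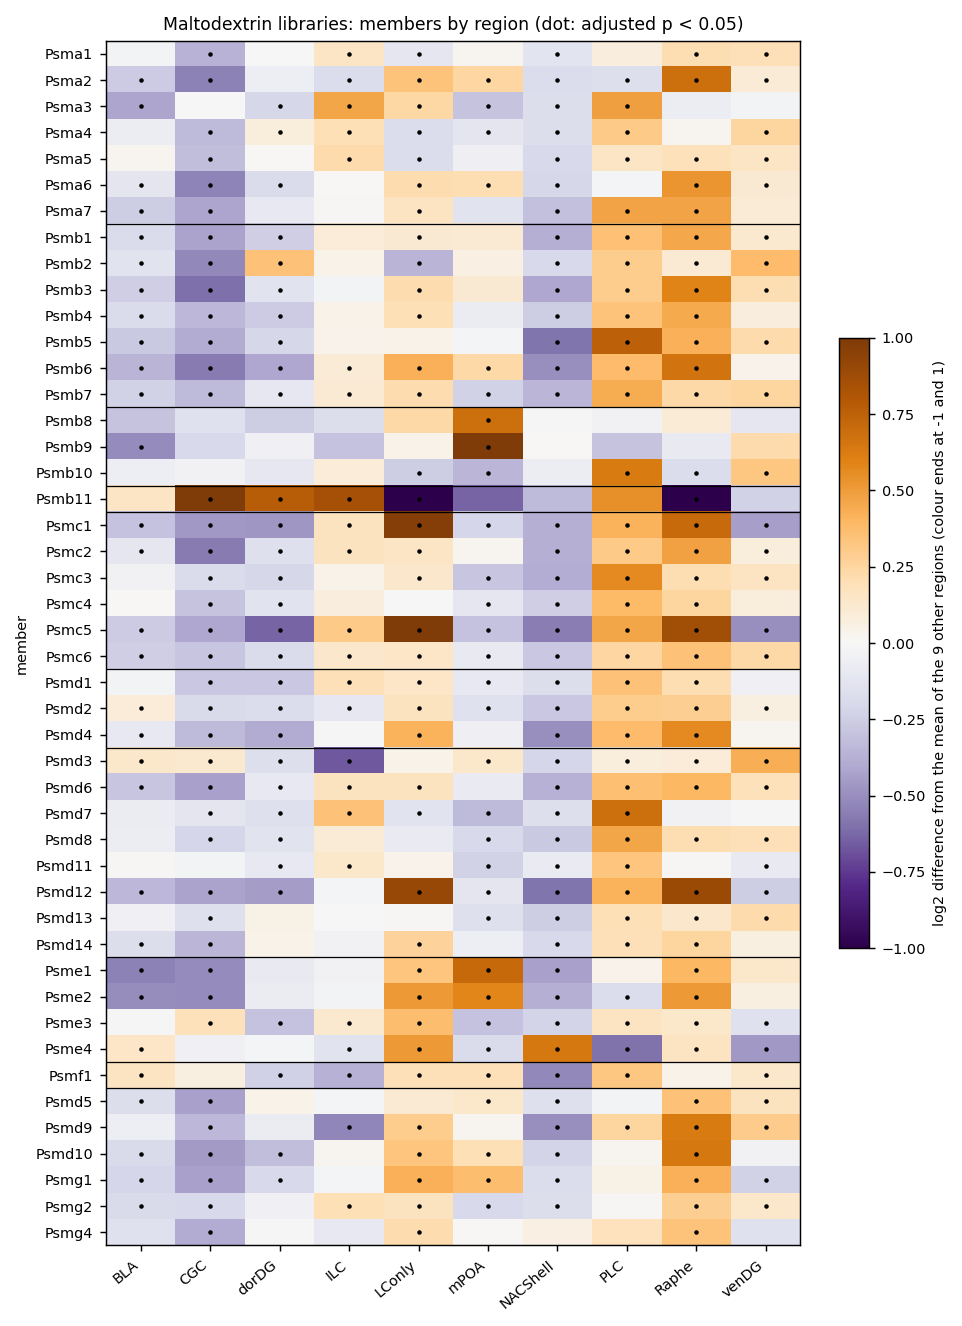
Log2 difference of each region (x axis) from the mean of the 9 other regions in Maltodextrin libraries for the 46 members tested (y axis, grouped by role), with a dot where the adjusted p was under 0.05. Columns for Raphe and PLC are mostly higher, with 37 and 32 members called higher, and those for CGC and NACShell are mostly lower.

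The treatments were compared over all regions with counts summed over the 10 regions in each treatment replicate, which gave 5 sums per treatment. That same-numbered libraries of different regions share their source was assumed. Levels of these sums are given in CPM adjusted for regional depth. FT, Bupropion, Desipramine and Maltodextrin share the Control libraries, and Maltodextrin is also the control of Probiotics, so these comparisons are not independent. The tests covered 15427 genes over all regions and 13951 in the 5 regions. With FT, 38 of 47 members were lower than in Control and 6 higher, while 36.1% of all genes were lower and 25.5% higher. The median member changed by -0.37 on the log2 scale and the median of all genes by -0.05. In the 5 regions 33 members were lower and 7 higher (30% and 28.8% of all genes), with a median of -0.20. With Desipramine, 33 were lower and 8 higher (42.1% and 27.8% of all genes), with a median of -0.23 against -0.09 over all genes. In the 5 regions 26 were lower and 11 higher (34% and 32.6%), with a median of -0.18. With Bupropion, 18 were lower and 12 higher (35.6% and 22.2%), with a median of -0.10 against -0.07, shares near the background. Bupropion in the 5 regions had 12 lower and 18 higher (25.9% and 24.6%), with a median of 0.06.

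Maltodextrin against Control gave 32 members lower and 2 higher (29.5% and 18.8% of all genes), with a median of -0.18 against -0.05 over all genes. In the 5 regions this did not hold: 10 were lower and 10 higher (25.7% and 28.5%), with a median of 0.01. Probiotics against Maltodextrin gave 13 lower and 12 higher (22.7% and 33.4%), with a median of -0.02 against 0.07 over all genes. Probiotics in the 5 regions had 33 lower and 3 higher (27.1% and 24.7%), with a median of -0.25. Without ILC, LConly and dorDG, a choice made after seeing that Control ILC and Probiotics dorDG stood apart, FT had 35 lower and 7 higher and Desipramine 27 and 11. That choice gave Bupropion 11 lower and 17 higher, Maltodextrin 11 and 12, and Probiotics 25 and 6. The median member there changed by -0.22 with FT, -0.16 with Desipramine, 0.06 with Bupropion, 0.03 with Maltodextrin and -0.14 with Probiotics. The medians of all genes were -0.04, -0.07, -0.04, -0.03 and 0.03 in that order. Scaling by library totals in place of trimmed means moved the median of all genes by 0.14 for FT and 0.09 for Desipramine, and gave FT 30 members lower and 8 higher, and Desipramine 23 and 12. With that scaling Maltodextrin had 22 lower and 8 higher. Shares of all genes called are not given for library totals or without the 3 regions. Counts of members in those settings are therefore not set against that background.

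**Figure D3:**
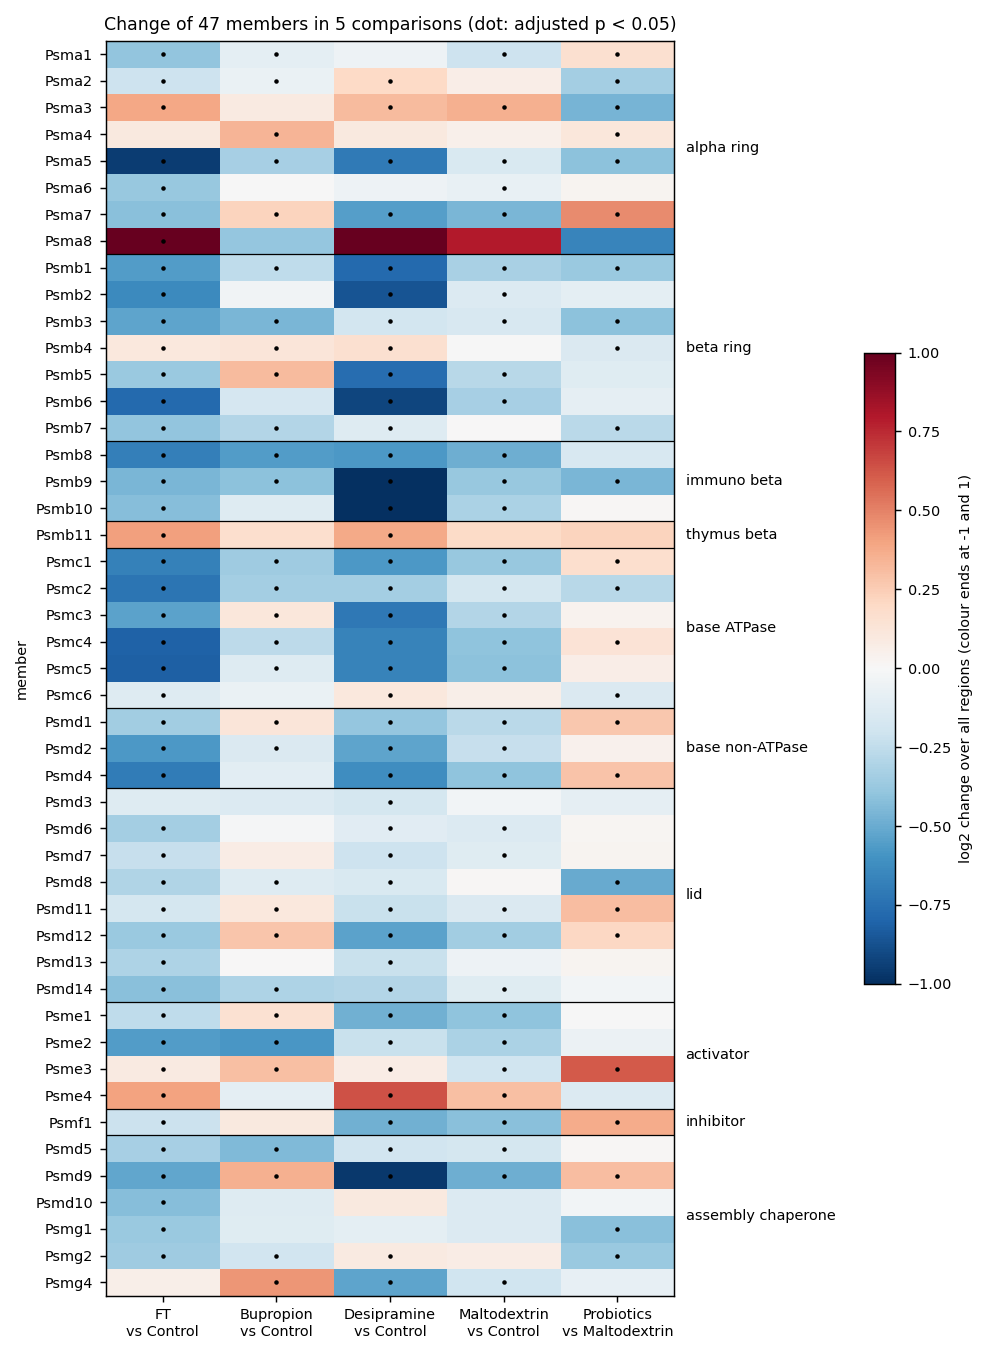
Log2 change over all regions (colour, cut at -1 and 1) for the 47 members (y axis, grouped by role) in the 5 comparisons (x axis), with a dot where the adjusted p was under 0.05. Blue fills most of the FT and Desipramine columns, with 38 and 33 members lower, while Psme3 and Psme4 are red in both.

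By group, core genes went 14 lower and 4 higher of 19 with FT, 8 and 4 with Bupropion, 11 and 4 with Desipramine, 12 and 1 with Maltodextrin, and 8 and 3 with Probiotics. Lid and base genes went 19 lower and 0 higher of 20 with FT, and 18 and 1 with Desipramine. They went 8 lower and 5 higher with Bupropion, 15 and 0 with Maltodextrin, and 3 and 7 with Probiotics. The 4 activator genes went 2 lower and 2 higher with FT, 1 and 2 with Bupropion, 2 and 2 with Desipramine, 3 and 1 with Maltodextrin, and 0 and 1 with Probiotics. Of all genes, 36.1% were lower and 25.5% higher with FT, 35.6% and 22.2% with Bupropion, and 42.1% and 27.8% with Desipramine. Maltodextrin gave 29.5% and 18.8% of all genes, and Probiotics 22.7% and 33.4%. Bupropion counts of core and of lid and base genes were near these shares. They are also the background for the classes of subunits below. Median changes with FT were -0.40 for core, -0.40 for lid and base, and -0.08 for activators, and with Desipramine -0.18, -0.32 and -0.07. Medians in the 5 regions were, with FT, -0.20, -0.23 and 0.18, and with Desipramine -0.06, -0.22 and 0.25. Of all genes there, 30% were lower and 28.8% higher with FT, 25.9% and 24.6% with Bupropion, and 34% and 32.6% with Desipramine. Maltodextrin there gave 25.7% and 28.5% of all genes, and Probiotics 27.1% and 24.7%. Core genes in the 5 regions went lower and higher in 12 and 4 of 19 with FT, 5 and 8 with Bupropion, 9 and 5 with Desipramine, 0 and 6 with Maltodextrin and 15 and 0 with Probiotics. Lid and base genes there gave 17 and 0 of 20 with FT, 5 and 7 with Bupropion, 14 and 2 with Desipramine, 8 and 2 with Maltodextrin and 13 and 1 with Probiotics, and activators 1 and 2 of 4 with FT, 1 and 2 with Bupropion, 1 and 3 with Desipramine, 1 and 1 with Maltodextrin and 2 and 1 with Probiotics. Core genes with Maltodextrin and lid and base genes with Probiotics thus changed their balance with the regions used. Core genes and lid and base genes with Bupropion did so too, as did activators with FT, Desipramine, Maltodextrin and Probiotics. Activator medians turned from -0.08 to 0.18 with FT, from -0.07 to 0.25 with Desipramine and from -0.26 to 0.04 with Maltodextrin. Differences between these groups of genes were not tested.

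The constitutive catalytic subunits fell with FT and Desipramine. Psmb6, which carries the caspase-like site, stood at 699.7, 691, 663, 639 and 644 CPM in the 5 Control sums. Desipramine sums held 361, 329.8, 339, 356 and 382 CPM and FT sums 263, 414, 393, 418 and 458 CPM. Both treated groups lay wholly below Control, and 1 FT sum stood well under the rest. The change was -0.92 ± 0.08 with Desipramine (adjusted p = 2.9e-11) and -0.78 ± 0.08 with FT (adjusted p = 8.3e-10), by edgeR's quasi-likelihood test, and -0.55 and -0.35 in the 5 regions. Psmb5 held 389.8, 396, 394, 406 and 436 CPM in Control, 226, 230.4, 234, 245 and 259.6 CPM with Desipramine and 451, 483, 505, 520.3 and 553 CPM with Bupropion. Desipramine sums were all below Control and Bupropion sums all above it. The changes were -0.76 ± 0.08 (adjusted p = 1.7e-09) and 0.31 ± 0.08 (adjusted p = 0.0013), and FT gave -0.37 ± 0.08 (adjusted p = 0.00019). Psmb7, with the trypsin-like site, changed by -0.39 ± 0.04 with FT, -0.30 ± 0.04 with Bupropion and -0.13 ± 0.04 with Desipramine (adjusted p = 5.8e-09, 1.4e-06 and 0.011). Its Desipramine change was -0.06 in the 5 regions (adjusted p = 0.24), and with Probiotics Psmb7 fell by 0.27 (adjusted p = 4.9e-06). Against Control, Maltodextrin gave -0.28 ± 0.08 for Psmb5, -0.33 ± 0.08 for Psmb6 and 0.00 ± 0.04 for Psmb7 (adjusted p = 0.0052, 0.00088 and 0.99), and in the 5 regions -0.17, 0.09 and 0.13, the last called higher. Of the 7 genes of the constitutive beta ring, 6 were lower with FT and 6 with Desipramine, and Psmb4 was higher with both, by 0.10 ± 0.03 and 0.16 ± 0.03 (adjusted p = 0.0053 and 3.7e-05).

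Of the 6 treatments, Desipramine had the lowest mean levels of the immunoproteasome genes Psmb9 and Psmb10. Psmb10, the inducible counterpart of Psmb7, held 62.5, 66.9, 62.7, 61.6 and 64.7 CPM in Control and 31.0, 29.6, 30.3, 32.1 and 35.1 CPM with Desipramine. The highest Desipramine sum was far below the lowest Control sum. The change was -1.01 ± 0.09 (adjusted p = 5.2e-11), and it was -0.74 in the 5 regions (adjusted p = 8.1e-08). In NACShell, Control libraries held 50.9, 62.2, 53.2, 58.6 and 63.1 CPM and Desipramine libraries 18.4, 27.3, 28.0, 31.9 and 30.2 CPM. Group means fell from 143 to 31.5 CPM in ILC, from 58.5 to 27.0 CPM in CGC, from 40.02 to 23.5 CPM in mPOA and from 47.7 to 32.2 CPM in Raphe. In none of the 10 regions did the 2 groups of libraries overlap. Psmb9, the inducible counterpart of Psmb6, held 5.53, 5.74, 5.51, 5.48 and 6.64 CPM in Control and 2.60, 2.65, 2.5, 2.84 and 3.02 CPM with Desipramine. All Desipramine sums were below all Control sums, at a change of -1.09 ± 0.07 (adjusted p = 2.9e-13) and -0.76 in the 5 regions (adjusted p = 2.6e-09). The fitted change of both genes was negative in each of the 10 regions.

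Psmb8, the inducible counterpart of Psmb5, was lower in each of the treatments compared with Control, but by less in the 5 regions. Control sums held 6.50, 6.18, 6.25, 6.95 and 6.87 CPM, Bupropion sums 4.06, 4.35, 4.64, 4.72 and 4.47 CPM and Maltodextrin sums 4.86, 4.78, 4.76, 4.31 and 4.59 CPM. No treated sum reached the lowest Control sum. Changes were -0.69 ± 0.08 with FT, -0.56 ± 0.07 with Bupropion, -0.58 ± 0.07 with Desipramine and -0.49 ± 0.07 with Maltodextrin (adjusted p = 5.1e-09, 2.0e-07, 8.0e-08 and 4.4e-06). In the 5 regions they were -0.28, -0.25, -0.30 and -0.11, the last not called (adjusted p = 0.27). Control Psmb8 was high where MHC class II RNA was high: 9.10 CPM in BLA and 9.80 CPM in venDG, against 4.05 CPM in PLC, although Control ILC also held 9.02 CPM, while the other treatments held 3.45 to 4.62 CPM in BLA and venDG. Psmb9 likewise held 7.35 and 10.7 CPM there in Control. The part of these immune markers in the Psmb8 and Psmb9 results was not tested, and the 5-region values leave both regions out. Psmb10 in Control BLA, at 49.7 CPM, was below Control PLC, CGC and NACShell. Psmb9 changed by -0.45 ± 0.07 with FT, -0.41 ± 0.07 with Bupropion and -0.38 ± 0.07 with Maltodextrin (adjusted p = 3.2e-06, 1.2e-05 and 8.3e-05), and by -0.19, -0.19 and -0.10 in the 5 regions. Psmb10 changed by -0.42 ± 0.09 with FT (adjusted p = 0.00013) and -0.32 ± 0.09 with Maltodextrin (adjusted p = 0.0037), neither of them called in the 5 regions (-0.15 and -0.00). With Bupropion it was -0.13 ± 0.09 (adjusted p = 0.2).

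With Probiotics, Psmb9 was lower than in Maltodextrin. Its sums held 3.35, 2.77, 3.32, 3.42 and 3.41 CPM with Probiotics and 4.46, 4.39, 5.12, 4.42 and 3.88 CPM with Maltodextrin, without overlap, at a change of -0.45 ± 0.07 (adjusted p = 5.8e-06) and -0.55 in the 5 regions. Psmb8 changed by -0.16 ± 0.08 (adjusted p = 0.08) and Psmb10 by 0.02 ± 0.09 (adjusted p = 0.9) over all regions. Both were called lower in the 5 regions, at -0.30 and -0.30. Psmb10 in dorDG went the other way, with 89.0, 108, 114, 134 and 120.5 CPM in Probiotics and 44.0, 51.1, 46.1, 50.1 and 41.5 CPM in Maltodextrin; those Probiotics libraries are the ones low in Slc17a7 and Prox1.

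**Figure D4:**
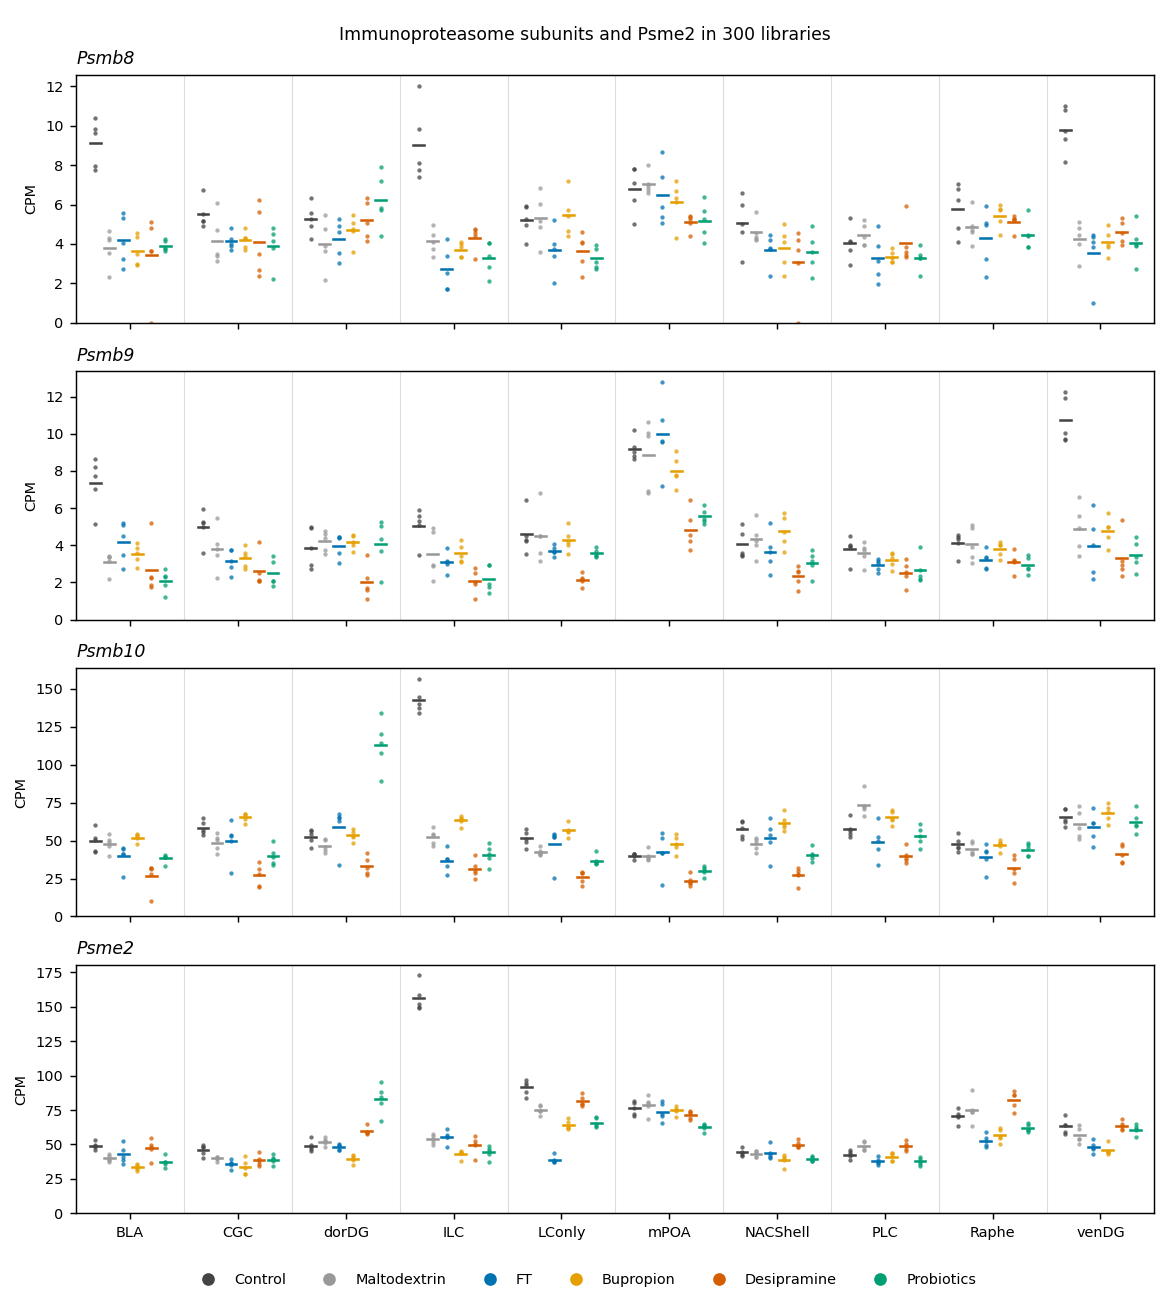
CPM (y axis) of Psmb8, Psmb9, Psmb10 and Psme2 by region (x axis), with 1 point per library, coloured by treatment, and a short line at the mean of 5. Desipramine points lie under Control points for Psmb10 in all 10 regions, and Control stands high for Psmb8 and Psmb9 in BLA and venDG.

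In the alpha ring, Psma5 fell further with FT than any other member called lower. Control sums held 213, 208, 206, 202 and 202 CPM, FT sums 92.8, 115, 111, 110.4 and 105 CPM and Desipramine sums 126, 121, 123, 129 and 134 CPM. Neither treated group overlapped Control. The change was -0.95 ± 0.04 with FT (adjusted p = 2.7e-18) and -0.70 ± 0.04 with Desipramine (adjusted p = 3.5e-15), and -0.75 and -0.46 in the 5 regions. The fitted change of Psma5 was negative in each of the 10 regions with both treatments. With Bupropion it was -0.33 ± 0.04 (adjusted p = 2.4e-08; -0.15 in the 5 regions), and with Probiotics -0.41 ± 0.04 (adjusted p = 3.2e-10; -0.48). The alpha ring was mixed otherwise, with 5 of 8 genes lower and 2 higher with FT, 2 and 2 with Desipramine, and 3 and 3 with Probiotics. Psma4 rose with Bupropion, from 256, 252, 249, 246 and 252 CPM to 324, 319, 314, 312 and 319 CPM, without overlap (0.34 ± 0.05, adjusted p = 3.3e-07; 0.46 in the 5 regions). Psma2 rose with Desipramine by 0.20 ± 0.03 and fell with Probiotics by 0.34 ± 0.03 (adjusted p = 4.3e-07 and 5.1e-11).

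Psma7 depended on which regions entered. Over all regions, Probiotics sums held 574, 552, 560.5, 560.1 and 644 CPM and Maltodextrin sums 399.6, 404, 409, 413 and 462 CPM, without overlap (0.47 ± 0.04, adjusted p = 4.8e-10), and Maltodextrin was lower than Control (-0.46 ± 0.04, adjusted p = 4.2e-09). In the 5 regions the changes were 0.03 and -0.06 (adjusted p = 0.62 and 0.35). Psma7 in dorDG stood at 1246 ± 103 CPM in Probiotics and 383 ± 22.7 CPM in Maltodextrin, and in ILC at 1466 ± 211 CPM in Control and 409.7 ± 18.3 CPM in Maltodextrin. Both of the high groups are ones with unusual markers. With Bupropion Psma7 rose by 0.22 ± 0.04 (adjusted p = 9.1e-05) and by 0.60 in the 5 regions. Psma3 has a near copy in the table, Psma3l, between which reads may have been split, so its values are uncertain. It was higher with Maltodextrin (0.36 ± 0.08, adjusted p = 0.00029), Desipramine (0.32 ± 0.08, adjusted p = 0.00043) and FT (0.39 ± 0.08, adjusted p = 6.1e-05; 0.24 without FT replicate 1), and lower with Probiotics (-0.47 ± 0.08, adjusted p = 5.2e-06).

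Among the 6 base ATPases, all were lower with FT, 5 with Desipramine and 5 with Maltodextrin, at medians of -0.70, -0.62 and -0.34. Psmc4 held 295, 279.5, 287, 270.0 and 259 CPM in Control and 145, 164, 158, 155 and 171 CPM with FT. Every FT sum was below every Control sum, at a change of -0.81 ± 0.04 (adjusted p = 1.0e-15), and of -0.59 in the 5 regions. Psmc5 held 1577, 1526, 1544, 1461 and 1343 CPM in Control and 773, 878, 803, 824 and 958 CPM with FT, again apart, at -0.81 ± 0.05 (adjusted p = 3.4e-15; -0.52 in the 5 regions). With Desipramine the changes were -0.67 ± 0.04 for Psmc4 and -0.67 ± 0.05 for Psmc5 (adjusted p = 1.2e-13 and 4.0e-13). Psmc6 was the 1 ATPase gene higher with Desipramine (0.11 ± 0.05, adjusted p = 0.042). With Bupropion 4 of the 6 were lower over all regions, Psmc5 among them at -0.13 ± 0.05 (adjusted p = 0.02), while in the 5 regions Psmc5 stood at 0.06 (adjusted p = 0.31). Probiotics gave 2 higher and 2 lower over all regions, and 0 higher and 6 lower in the 5 regions. Psmc4 reversed between these, from 0.14 ± 0.04 (adjusted p = 0.0075) to -0.23 (adjusted p = 7.9e-06). The base scaffolds Psmd1 and Psmd2 and the ubiquitin receptor Psmd4 were all lower with FT (-0.35, -0.57 and -0.70), with Desipramine (-0.38, -0.53 and -0.62) and with Maltodextrin (-0.27, -0.23 and -0.40). Psmd2 kept its size in the 5 regions, at -0.51 with FT and -0.55 with Desipramine.

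Lid genes were lower in 7 of 8 cases with FT and 8 of 8 with Desipramine, at medians of -0.30 and -0.22. Psmd14, the deubiquitinase of the lid, changed by -0.42 ± 0.03 with FT and -0.30 ± 0.03 with Desipramine (adjusted p = 4.8e-14 and 9.3e-11), and by -0.13 and -0.02 in the 5 regions, the last not called. Psmd12 went in opposite directions with Bupropion (0.28 ± 0.04, adjusted p = 3.5e-06) and Desipramine (-0.53 ± 0.04, adjusted p = 1.2e-11). Psmd3 gave -0.17 ± 0.06 with Desipramine (adjusted p = 0.02) and -0.13 ± 0.06 with FT (adjusted p = 0.092). Psmd8 had the lowest change with Probiotics. Probiotics sums held 73.3, 69, 68.0, 64.5 and 66.7 CPM and Maltodextrin sums 94.7, 96.1, 92.9, 99.0 and 101 CPM, far apart, at -0.50 ± 0.04 (adjusted p = 1.5e-11) and -0.49 in the 5 regions. Its fitted change was negative in 10 of 10 regions. In PLC, for example, Psmd8 stood at 80.8 ± 4.23 CPM with Probiotics and 127 ± 10.0 CPM with Maltodextrin, and in Raphe at 76.5 ± 6.77 and 108 ± 10.9 CPM.

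Psme4 rose with Desipramine, from 51.2, 48.2, 49.3, 48.0 and 48.6 CPM in Control to 78.7, 81.0, 76.4, 73.6 and 71.1 CPM. The groups are far apart. The change was 0.63 ± 0.07 (adjusted p = 1.7e-09), 0.79 in the 5 regions, and positive in 10 of 10 regions. With FT it was 0.40 ± 0.07 (adjusted p = 6.9e-06) and with Maltodextrin 0.30 ± 0.07 (adjusted p = 0.00048), and Maltodextrin sums held 62.8, 60.4, 60.6, 60.1 and 58.5 CPM, all above Control. With Bupropion it was -0.09 ± 0.07 (adjusted p = 0.23). Psme3, the nuclear cap subunit, had the highest change with Probiotics: 129.8, 127, 117, 126 and 131 CPM against 83.8, 84.3, 82.6, 81.2 and 79.7 CPM in Maltodextrin. No Maltodextrin sum came near the lowest Probiotics sum. The change was 0.62 ± 0.03 (adjusted p = 4.1e-16), 0.39 in the 5 regions, and positive in all 10 regions. In dorDG, where Probiotics markers were unusual, Psme3 stood at 203 ± 17.7 against 66.9 ± 5.08 CPM. In Raphe the Probiotics libraries held 125, 97.4, 107, 118 and 108 CPM of Psme3 and the Maltodextrin libraries 89.3, 89.7, 87.0, 87.9 and 86.6 CPM, also without overlap.

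Psme3 was higher than in Control with Bupropion by 0.30 ± 0.03 (adjusted p = 1.4e-09), and by 0.09 ± 0.03 with FT and 0.08 ± 0.03 with Desipramine (adjusted p = 0.013 and 0.027). These were, in the 5 regions, 0.64, 0.44 and 0.42, over 1.5 times as large. Control ILC held 236 CPM of Psme3 against 77.3 CPM in Control Raphe. Over all regions Maltodextrin was -0.20 ± 0.03 for Psme3 (adjusted p = 4.4e-06), and 0.04 in the 5 regions (adjusted p = 0.43). Psme2, a subunit of the interferon-inducible cap, held 72.1, 72.5, 68.8, 69 and 70.3 CPM in Control and 47.4, 45.1, 46.9, 45.5 and 50.6 CPM with Bupropion, far lower, at -0.58 ± 0.03 (adjusted p = 1.4e-14) and -0.20 in the 5 regions. With FT it was -0.56 ± 0.03 (adjusted p = 6.7e-15; -0.20), and with Maltodextrin -0.32 ± 0.03 (adjusted p = 9.7e-09; 0.04, not called). With Desipramine it was -0.22 ± 0.03 over all regions (adjusted p = 6.7e-07) and 0.08 in the 5 regions, called in both with opposite sign. Psme1, its partner in the same cap, held 60.4, 58.9, 61.2, 61.5 and 66.3 CPM in Control and 47.2, 41.9, 42.4, 43.5 and 46.4 CPM with Desipramine, without overlap (-0.48 ± 0.05, adjusted p = 8.1e-10; -0.40). With Bupropion Psme1 was 0.15 ± 0.05 (adjusted p = 0.0089), with FT -0.25 ± 0.05 (adjusted p = 4.9e-05) and with Maltodextrin -0.40 ± 0.05 (adjusted p = 1.4e-07). Probiotics gave -0.00 ± 0.05 for Psme1, -0.06 ± 0.03 for Psme2 and -0.13 ± 0.07 for Psme4, none of them called (adjusted p = 0.94, 0.13 and 0.09).

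The 3 assembly chaperone genes named Psmg were lower and higher in 2 and 0 with FT, 1 and 1 with Bupropion, 1 and 1 with Desipramine, 1 and 0 with Maltodextrin and 2 and 0 with Probiotics. Psmd9, a chaperone of base assembly, held 34.8, 35.6, 36.1, 38.7 and 40.3 CPM in Control, 18.0, 18.3, 18.9, 19.2 and 20.7 CPM with Desipramine and 42.2, 45.8, 49.2, 50.009 and 50.7 CPM with Bupropion. Desipramine sums were all below Control and Bupropion sums all above. The changes were -0.96 ± 0.10 (adjusted p = 1.0e-09) and 0.36 ± 0.10 (adjusted p = 0.0021), and -0.98 and 0.37 in the 5 regions. Bupropion was positive for Psmd9 in 10 of 10 regions and Desipramine negative in 10 of 10. With FT Psmd9 was -0.52 ± 0.10 (adjusted p = 3.7e-05), and with Maltodextrin -0.49 ± 0.10 (adjusted p = 0.00015; -0.48 in the 5 regions). With Probiotics it was 0.31 ± 0.10 (adjusted p = 0.0077) and -0.01 in the 5 regions (adjusted p = 0.95). Psmg4, a chaperone of core assembly, rose with Bupropion, from 24.8, 27.9, 26.5, 29.5 and 33.8 to 34.1, 37.7, 40.2, 41.9 and 39.2 CPM, without overlap (0.44 ± 0.06, adjusted p = 1.2e-06), and fell with Desipramine (-0.53 ± 0.07, adjusted p = 3.3e-08). Psmg1 and Psmg2, which pair to start the alpha ring, fell with FT (-0.37 and -0.36; adjusted p = 2.8e-05 and 1.1e-08) and with Probiotics (-0.42 and -0.37; adjusted p = 6.3e-06 and 7.3e-09). Psmf1 was lower with Maltodextrin than with Control (-0.42 ± 0.08, adjusted p = 8.4e-05), lower with Desipramine (-0.48 ± 0.08, adjusted p = 3.7e-06), and higher with Probiotics than with Maltodextrin, where sums held 75.2, 67.6, 64.2, 63.2 and 61.0 and 52.8, 50.8, 49.98, 49.7 and 52.4 CPM without overlap (0.37 ± 0.08, adjusted p = 0.0002; positive in 10 of 10 regions).

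Psma8 and Psmb11, the members known from testis and thymus, were near the limit of detection. Psma8 had no count in 10 libraries, Psmb11 in 10 and Psmb8 in 2, while the other 44 members were counted in every library. Psma8 held 0.449, 0.669, 0.573, 0.511 and 0.551 CPM in Control and 33.9, 2.61, 0.763, 1.75 and 0.593 CPM with FT. A single FT sum was far above the rest, and 1 of the others lay within the Control range. The change with FT was 3.76 ± 0.80 (adjusted p = 0.00017) and 1.31 without FT replicate 1. The high values for Psma8 came from single libraries: FT replicate 1 held 202 CPM in mPOA, 64.0 in CGC and 63.1 in venDG, and Desipramine replicate 3 held 47 in BLA, in the library of 198260 counts. Psmb11 held 0.910, 0.821, 0.937, 0.933 and 0.648 CPM in Control and 1.2, 1.05, 1.15, 1.23 and 1.06 CPM with FT, without overlap (0.41 ± 0.12, adjusted p = 0.005; 0.23 in the 5 regions, adjusted p = 0.21). With Desipramine it was 0.38 ± 0.12 (adjusted p = 0.0074).

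In Raphe, where serotonin neurons lie, 42 of 45 members tested were called with FT (61.1% of all 12196 genes tested were called), 36 lower and 6 higher. For Raphe, NACShell and PLC, the shares of all genes cover both directions together. Splits of members into higher and lower, and their medians, are therefore not set against all genes in these regions. The median member changed by -0.37. Psmc4 held 324, 313, 304, 269.9 and 296 CPM in Control Raphe and 112, 152, 139.9, 125 and 146 CPM in FT Raphe. The groups are apart, and the change was -1.15 ± 0.07 (adjusted p = 4.1e-15). Psmb2, a beta ring subunit, and Psmc5 changed by -1.01 and -1.0, and Psme4 rose by 0.73 ± 0.10 (adjusted p = 5.0e-08). Desipramine in Raphe called 36 (59.8% of all genes), 13 higher and 23 lower, with Psmd9 at -1.1 ± 0.12 and Psme4 at 0.70 ± 0.09. Bupropion called 22 (43.5%), 7 higher and 15 lower, Probiotics 25 (40.7%), 2 higher and 23 lower, and Maltodextrin 19 (33.2%), 10 higher and 9 lower. Psmc5 was the lowest with Bupropion at -0.64 ± 0.08, while Psmg4 and Psme3 were the highest at 0.58 and 0.50. With Probiotics Psmg1 was the lowest at -0.58 and Psme3 the highest at 0.34.

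In NACShell 45 members and 12101 genes were tested. FT called 25 (46.4% of all genes), 3 higher and 22 lower. Psma5 held 188, 208, 199, 195 and 204 CPM in Control and 85.5, 103, 102, 95.8 and 90.8 CPM in FT, without overlap (-1.05 ± 0.06, adjusted p = 1.0e-15). Bupropion called 30 (47.8%), 7 higher and 23 lower, with Psmb7 at -0.53 and Psmf1 at 0.77 ± 0.08. Desipramine called 29 (41.3%), 4 higher and 25 lower, led by Psmb10 at -0.99 ± 0.11 (adjusted p = 6.4e-09), whose libraries are given above. Probiotics called 22 (41%), 4 higher and 18 lower, with Psmb9 at -0.49 and Psmf1 at 0.57. Maltodextrin called 32 (46.3%), 1 higher and 31 lower. Psme4 was the member higher there, with 89.1, 93.2, 88.3, 88.0 and 86.4 CPM in Maltodextrin and 58.5, 56.5, 59.0, 51.8 and 54.7 CPM in Control, without overlap (0.67 ± 0.09, adjusted p = 8.6e-08).

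PLC gave opposite directions for Maltodextrin and Probiotics. Of 47 members and 12034 genes tested, Maltodextrin called 35 (50.7% of all genes), 32 higher and 3 lower, at a median of 0.29. Probiotics, set against those same Maltodextrin libraries, called 38 (47.3%), 2 higher and 36 lower, at a median of -0.40. Psmb3 held 349.5, 334, 322, 322 and 332 CPM in Control PLC, 451, 439, 412, 424 and 502 CPM in Maltodextrin and 244, 218, 257, 235 and 272 CPM in Probiotics. Maltodextrin was above Probiotics in every library, at -0.86 ± 0.07 (adjusted p = 5.6e-12). Bupropion called 31 (47.4%), 28 higher and 3 lower, at a median of 0.21. Psme3 rose by 0.85 ± 0.07, Psma7 by 0.84 and Psma4 by 0.76, while Psmd3 fell by 0.38. Desipramine called 33 (60.3%), 12 higher and 21 lower, with Psmd9 at -1.03, Psmb5 at -0.74 and Psme4 at 0.88 ± 0.09. FT called 30 (42.9%), 8 higher and 22 lower, with Psma5 at -0.55 and Psme4 at 0.63. Psma8 was the highest there at 2.65 ± 0.64, from 1 library at 17.2 CPM.

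In the other 7 regions fitted changes are given as a description. With FT the median member was at -0.92 in ILC, -0.73 in LConly, -0.27 in BLA, -0.17 in CGC, -0.15 in venDG, -0.07 in mPOA and 0.05 in dorDG. The FT libraries labelled ILC and LConly carry each other's markers. With Desipramine the median lay at -1.07 in ILC and between -0.35 (LConly) and 0.03 (dorDG) elsewhere. With Bupropion it lay at -0.54 in ILC, -0.17 in LConly, 0.16 in CGC and 0.17 in mPOA. With Maltodextrin it lay at -0.84 in ILC, -0.34 in LConly, -0.24 in CGC and -0.02 in dorDG. All 4 comparisons with Control were thus lowest in ILC, where Control carried little Slc17a7. Probiotics against Maltodextrin was highest in dorDG, at a median of 0.68, and stood at 0.19 in venDG, -0.29 in ILC and -0.25 in mPOA.

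**Figure D5:**
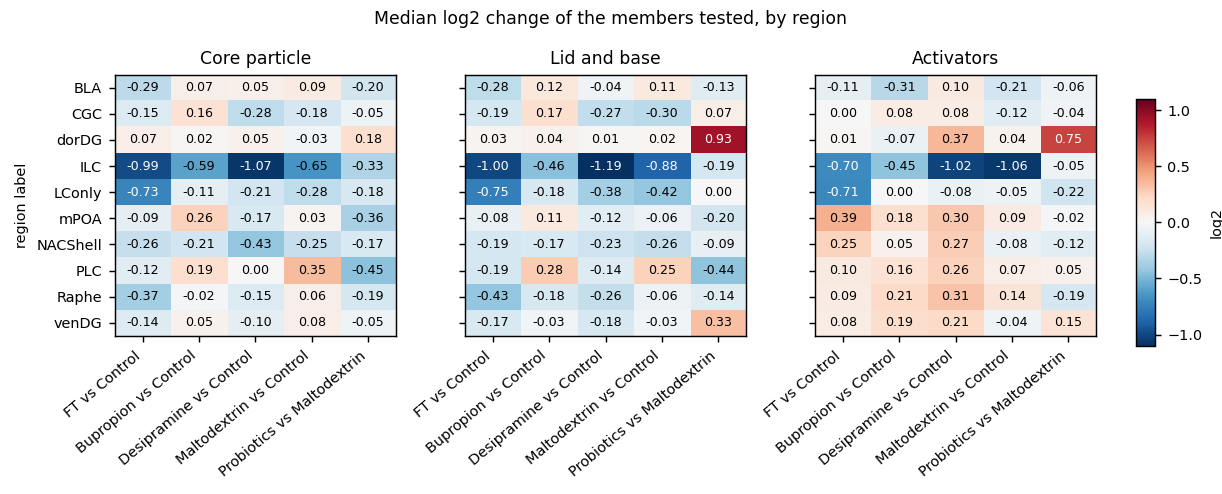
Median log2 change of the members tested (colour and printed value) by region (y axis) and comparison (x axis), for core, lid and base, and activator genes. ILC is the darkest blue row in the comparisons with Control, and dorDG is red for Probiotics.

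The change of most members differed between regions, as it did for most genes. The 9 treatment-by-region terms passed edgeR's quasi-likelihood test for 47 of 47 members with FT (93.1% of all genes), 46 with Bupropion (90.3%), 46 with Desipramine (87.5%), 44 with Probiotics (82.6%) and 46 with Maltodextrin (89.6%). Regional differences were thus about as common among the members as in the rest of the table.

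Proteasome genes with other names did not move as one. For this list and those that follow, the shares of all genes called are those given above for the members. Of 10 such names, 5 were in the table, and with FT 2 of 5 were higher and 1 lower, with Bupropion 2 of 5 were higher and 3 lower, with Desipramine 1 of 5 were higher and 2 lower, with Maltodextrin 2 of 5 were higher and 1 lower and with Probiotics 1 of 5 were higher and 3 lower. Adrm1, a ubiquitin receptor of the base, rose with Bupropion to 87.6 against 46.3 CPM (0.92 ± 0.07, adjusted p = 1.9e-11) and with FT (0.52 ± 0.07), and fell with Desipramine (-0.36 ± 0.07). With Probiotics it stood at 63.5 against 33.8 CPM in Maltodextrin (0.91 ± 0.07, adjusted p = 2.0e-11). Akirin2, which brings proteasomes into the nucleus, rose with FT (0.38 ± 0.03, adjusted p = 4.0e-12) and Desipramine (0.49 ± 0.03, adjusted p = 2.4e-14). Of 5 enzymes that edit ubiquitin on the proteasome or aid it, with FT 2 of 5 were higher and 2 lower, with Bupropion 1 of 5 were higher and 1 lower, with Desipramine 3 of 5 were higher and 0 lower, with Maltodextrin 1 of 5 were higher and 0 lower and with Probiotics 2 of 5 were higher and 1 lower. Zfand5, which activates the proteasome, rose with FT (0.29 ± 0.04), Bupropion (0.26 ± 0.04) and Desipramine (0.31 ± 0.04), with adjusted p = 2.6e-08, 2.6e-07 and 9.7e-09. Among 7 regulators of proteasome genes, with FT 2 of 7 were higher and 3 lower, with Bupropion 3 of 7 were higher and 2 lower, with Desipramine 3 of 7 were higher and 3 lower, with Maltodextrin 2 of 7 were higher and 2 lower and with Probiotics 3 of 7 were higher and 2 lower. Mafg, a partner of Nfe2l1 and Nfe2l2, rose with FT (0.64 ± 0.03, adjusted p = 6.9e-16), Bupropion (0.26), Desipramine (0.46) and Probiotics (0.32). With FT it had the highest change of the 7 regulators, whose median was 0.06 and lowest change -0.31. Values of Nfe2l1 and of the other regulators are not given here.

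Ubiquitin shuttles and the Vcp cofactors, 9 of which were in the table, were also mixed: with FT 4 of 9 were higher and 4 lower, with Bupropion 2 of 9 were higher and 5 lower, with Desipramine 5 of 9 were higher and 4 lower, with Maltodextrin 4 of 9 were higher and 2 lower, and with Probiotics 2 of 9 were higher and 5 lower. The shuttles Ubqln2 and Rad23b rose with Desipramine by 0.56 ± 0.03 and 0.51 ± 0.04 (adjusted p = 3.3e-14 and 6.6e-13). Of 6 ubiquitin genes and activating enzymes, with FT 2 of 6 were higher and 2 lower, with Bupropion 1 of 6 were higher and 3 lower, with Desipramine 2 of 6 were higher and 4 lower, with Maltodextrin 2 of 6 were higher and 2 lower and with Probiotics 2 of 6 were higher and 2 lower. Ubb, a polyubiquitin gene, fell to 3962 against 12727 CPM with Desipramine (-1.68 ± 0.11, adjusted p = 2.3e-13) and to 4654 against 12727 CPM with FT (-1.45 ± 0.11, adjusted p = 3.8e-12), while Rps27a, a fusion of ubiquitin with a ribosomal protein, rose with both (0.68 and 0.38). Antigen processing and interferon genes, 12 tested, had medians of -0.24 with FT, -0.21 with Bupropion, -0.47 with Desipramine, -0.11 with Maltodextrin and -0.03 with Probiotics. With FT 0 of 12 were higher and 9 lower, with Bupropion 1 of 12 were higher and 8 lower, with Desipramine 2 of 12 were higher and 9 lower, with Maltodextrin 1 of 12 were higher and 6 lower and with Probiotics 2 of 12 were higher and 3 lower. They were higher and lower in the 5 regions in 0 and 6 of 12 with FT, 2 and 4 with Bupropion, 3 and 8 with Desipramine, 4 and 3 with Maltodextrin and 0 and 5 with Probiotics, at medians of -0.14, -0.04, -0.37, 0.01 and -0.08 in that order. Over all regions Mx1, an interferon-induced antiviral gene, stood at 2.92 against 7.89 CPM with FT (-1.45 ± 0.07, adjusted p = 4.3e-16), and Irf7, an interferon regulator, at 1.76 against 4.21 CPM with Desipramine (-1.26 ± 0.07, adjusted p = 4.4e-15). In the 5 regions the lowest change of any gene tested in this list was -0.70 with FT and -1.35 with Desipramine. The genes with these lowest changes are not named, and the 5-region changes of Mx1 and Irf7 are not given here.

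Markers of several cell types were called in the same comparisons, and their part in the changes of the members was not tested. Of all genes, 25.5% were higher and 36.1% lower with FT, 22.2% and 35.6% with Bupropion, and 27.8% and 42.1% with Desipramine. Maltodextrin gave 18.8% and 29.5% of all genes, and Probiotics 33.4% and 22.7%. Some lists were near or under these shares, such as astrocyte genes with FT. Microglia genes were higher and lower in 0 and 7 of 8 with FT, 1 and 3 with Bupropion, 1 and 7 with Desipramine, 0 and 7 with Maltodextrin and 3 and 0 with Probiotics, and with Desipramine their median was -0.50. For MHC class II genes the numbers were 0 and 5 of 5 with FT, 0 and 5 with Bupropion, 0 and 5 with Desipramine, 0 and 5 with Maltodextrin and 0 and 2 with Probiotics, with a median of -3.17 with Desipramine. Over the 10 regions the 8 microglia genes summed to 397 to 1161 CPM in Control and 329.7 to 514 CPM with Desipramine, and the 5 MHC class II genes to 21.1 to 903 and 8.66 to 44.3 CPM. No microglia gene was at 0 in any group, while RT1-Bb of the MHC class II list was at 0 in several. For blood immune cell genes they were 0 and 4 of 6 with FT, 0 and 2 with Bupropion, 0 and 4 with Desipramine, 0 and 3 with Maltodextrin and 1 and 1 with Probiotics. Oligodendrocyte genes gave 1 and 5 of 6 with FT, 1 and 3 with Bupropion, 0 and 6 with Desipramine, 0 and 3 with Maltodextrin and 1 and 1 with Probiotics, and their median was -0.49 with FT and -0.58 with Desipramine. Astrocyte genes gave 1 and 1 of 6 with FT, 1 and 2 with Bupropion, 4 and 2 with Desipramine, 1 and 2 with Maltodextrin and 2 and 3 with Probiotics, and endothelial genes 1 and 4 of 5 with FT, 1 and 3 with Bupropion, 1 and 3 with Desipramine, 1 and 2 with Maltodextrin and 0 and 2 with Probiotics. Choroid plexus genes gave 4 and 0 of 6 with FT, 4 and 0 with Bupropion, 0 and 3 with Desipramine, 4 and 0 with Maltodextrin and 5 and 0 with Probiotics, and neuron genes 3 and 2 of 6 with FT, 5 and 1 with Bupropion, 2 and 3 with Desipramine, 3 and 1 with Maltodextrin and 4 and 1 with Probiotics, at neuron medians of 0.03, 0.36, -0.10, 0.04 and 0.50.

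The same lists in the 5 regions gave partly other numbers, again as higher and lower. Of all genes there, 28.8% were higher and 30% lower with FT, 24.6% and 25.9% with Bupropion, and 32.6% and 34% with Desipramine. Maltodextrin there gave 28.5% and 25.7% of all genes, and Probiotics 24.7% and 27.1%. Microglia genes gave 1 and 7 of 8 with FT, 2 and 1 with Bupropion, 2 and 6 with Desipramine, 0 and 5 with Maltodextrin and 1 and 2 with Probiotics, with a median of -0.63 with Desipramine. Of the MHC class II genes 4 were tested there, with 0 and 4 of 4 with FT, 0 and 3 with Bupropion, 0 and 4 with Desipramine, 0 and 1 with Maltodextrin and 0 and 4 with Probiotics, at medians of -0.77, -0.49, -1.0, -0.05 and -0.63. The Maltodextrin and Bupropion medians were thus far nearer to 0 than over all regions, where they were -2.46 and -2.86. Choroid plexus genes gave 1 and 3 of 6 with FT, 3 and 0 with Bupropion, 0 and 2 with Desipramine, 1 and 0 with Maltodextrin and 3 and 1 with Probiotics, and their median with FT turned from 0.25 to -0.34. Blood immune cell genes gave 0 and 3 of 6 with FT, 2 and 0 with Bupropion, 1 and 1 with Desipramine, 2 and 1 with Maltodextrin and 1 and 1 with Probiotics. Oligodendrocyte genes gave 0 and 6 of 6 with FT, 0 and 3 with Bupropion, 0 and 6 with Desipramine, 0 and 4 with Maltodextrin and 1 and 3 with Probiotics, astrocyte genes 1 and 2 of 6 with FT, 2 and 2 with Bupropion, 4 and 2 with Desipramine, 3 and 2 with Maltodextrin and 1 and 2 with Probiotics, endothelial genes 1 and 4 of 5 with FT, 1 and 3 with Bupropion, 1 and 2 with Desipramine, 2 and 2 with Maltodextrin and 0 and 3 with Probiotics and neuron genes 4 and 2 of 6 with FT, 5 and 1 with Bupropion, 3 and 3 with Desipramine, 2 and 2 with Maltodextrin and 4 and 1 with Probiotics. Proteasome genes with other names gave 3 and 2 of 5 with FT, 2 and 2 with Bupropion, 3 and 2 with Desipramine, 3 and 1 with Maltodextrin and 1 and 1 with Probiotics, the ubiquitin enzymes 3 and 0 of 5 with FT, 3 and 0 with Bupropion, 4 and 0 with Desipramine, 3 and 0 with Maltodextrin and 0 and 2 with Probiotics and the regulators 3 and 2 of 7 with FT, 4 and 1 with Bupropion, 3 and 2 with Desipramine, 2 and 2 with Maltodextrin and 2 and 2 with Probiotics. Shuttles gave 5 and 3 of 9 with FT, 3 and 4 with Bupropion, 5 and 3 with Desipramine, 3 and 2 with Maltodextrin and 1 and 5 with Probiotics, and ubiquitin genes 2 and 2 of 6 with FT, 2 and 1 with Bupropion, 2 and 4 with Desipramine, 2 and 1 with Maltodextrin and 1 and 4 with Probiotics.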

How the data were processed

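Counts per gene symbol in 300 libraries were used as the authors deposited them, without normalization. Per the submitters' processing notes, FastQC, the aligner STAR, the counter HTSeq and the build rn6 were used, with no version given in the sources here. Per the labels, a stranded total RNA kit and paired-end sequencing were used. All columns matched a sample. None of 600 pairs of libraries within groups was identical, and chi-square per degree of freedom was 1.34 or more. Depth ran from 198260 to 18310687 counts, and precision rests on the spread between 5 libraries.

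Counts were fitted in edgeR (4.0.16, R 4.3.3) with TMM factors from all 300 libraries, the filterByExpr filter (minimum count 10, minimum total 15) and the two-sided quasi-likelihood F test, with Benjamini-Hochberg adjustment over all genes tested. Sums over regions carried a gene-wise offset for regional depth, and all 30 sums entered 1 fit. Regions weigh in these sums by their counts of a gene. Single regions used the 30 libraries of Raphe, NACShell or PLC, and the test between regions used 100 libraries with treatment replicate and region in the model. CPM came from the TMM-scaled library totals. Standard errors are the log2 change divided by the square root of F. The procedure was tested on simulated data with 200 changed genes. DESeq2 (1.42.0) and limma (3.58.1) served as alternatives.

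Members and lists were chosen with earlier results of these data known. The rule for named genes took Psmb5 to Psmb10, the Psme genes, the 3 called members that rose most and the 3 that fell most in each comparison over all regions, the highest and lowest member of each region contrast, members near the detection limit, and up to 3 called genes per list. Other members were named after their values were seen. The gene lists were other proteasome genes, ubiquitin enzymes, regulators, shuttles, ubiquitin genes, antigen processing, and markers of 8 cell types. Levels were not compared between genes, since gene lengths were not used here.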

Additional observations from a re-analysis of the deposited data

Results flagged for a closer look

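Samples that stood apart within a group of 5 were sought among the 25 members named by the rule, with the gap to the nearest sample divided by the range set against Dixon's value of 0.71. Of 150 groups of 5 sums, 21 passed, and chance passes about 1 in 20. No explanation was tested, and all values are CPM adjusted for regional depth.

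In FT, replicate 1 stood apart for 7 members. It was high for Psma3 at 55.7 CPM, Psma4 at 326 CPM, Psma8 at 33.9 CPM and Psmb7 at 398 CPM, and low for Psmb8 at 2.83 CPM, Psmd3 at 79.4 CPM and Psmf1 at 39.6 CPM. The FT replicate 1 libraries held 3511756 to 4807308 counts, while the other FT libraries held 4917517 or more. In Maltodextrin, replicate 5 stood high for Psma7 at 462 CPM, Psma8 at 2.43 CPM, Psmb3 at 402 CPM, Psmc4 at 219 CPM and Psmd9 at 29.8 CPM. In Probiotics, replicate 5 stood high for Psma7 at 644 CPM, Psmb5 at 345 CPM and Psmd12 at 263 CPM, and replicate 2 stood low for Psmb9 at 2.77 CPM. In Bupropion, replicate 5 stood apart for Psmc5 at 1431 CPM and replicate 1 for Psmb9 at 4.02 CPM. In Desipramine, replicate 1 stood apart for Psma8 at 4.03 CPM and replicate 2 for Psmg4 at 20.3 CPM. Control replicate 5 stood high for Psmb9 at 6.64 CPM.

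A change that differed between regions, by edgeR's quasi-likelihood test of the 9 treatment-by-region terms, was found for 47 members with FT, 46 with Bupropion, 46 with Desipramine, 44 with Probiotics and 46 with Maltodextrin. Over all genes the shares were 93.1%, 90.3%, 87.5%, 82.6% and 89.6%.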

How the results depend on the processing

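Each group was sampled at 1 time from pooled punches, the labels name no batch, and Psma8, Psmb11 and the other members at low CPM rest on few counts. DESeq2, no filter on low counts, the limma fit over all regions and leaving out libraries under 1000000 counts kept every count of members they were run on within 1.5 times. The cause of each change below was not tested, except that fewer regions or samples entered where stated. Same-numbered sums correlated between treatments at -0.07 to 0.21, not all above 0.1, and the main fits did not pair them. The labels do not say that a number is shared between treatments, and a batch shared by same-numbered sums was not tested. Deviations of same-numbered libraries of different regions, within Maltodextrin, correlated at a median of 0.03 and a lowest of -0.31. The sums and the test between regions nonetheless treat such libraries as 1 treatment replicate. With the replicate block, FT gave 6 members higher and 38 lower, Bupropion 12 and 18, Desipramine 8 and 34, Probiotics 12 and 15, and Maltodextrin 3 and 32, and all block counts stayed within 1.5 times.

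Over all regions, members lower with Bupropion were 11 without ILC and LConly and 11 without ILC, LConly and dorDG. Members higher with Desipramine were 5 with RLE size factors, 5 with TMM within each region and 13 without ILC and LConly. For Probiotics, members higher were 7 with Control and Maltodextrin pooled, 3 in the 5 regions and 6 without ILC, LConly and dorDG, and members lower were 23, 33 and 25, with 20 where only the 2 groups entered. For Maltodextrin, members higher were 8 with library totals, 10 in the 5 regions, 6 with only the 2 groups, 10 without ILC and LConly and 12 without ILC, LConly and dorDG, and members lower were 10 in the 5 regions, 10 without ILC and LConly and 11 without the 3 regions. Library totals and leaving out the 3 regions were chosen after seeing the data. In PLC, FT called 16 members with only the 2 groups in the fit. Leaving out 1 replicate gave 5 to 8 members higher with Desipramine (5 without Control replicate 2, Control replicate 4 or Desipramine replicate 1), 1 to 3 higher in dorDG (1 without Maltodextrin replicate 3) and 1 to 2 lower in Raphe (1 without Maltodextrin replicate 1 or 3).

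Region contrasts differed in other treatments. For BLA, members higher were 1 in Desipramine, 0 in FT and 1 in Probiotics, and lower 40 in Control. For CGC, higher were 17 in Bupropion and 8 in Control, and lower 20 in Bupropion and 13 in FT. For dorDG, higher were 7 in Bupropion, 8 in Desipramine, 18 in FT and 35 in Probiotics, and lower 11 in Desipramine, 2 in FT and 9 in Probiotics. For ILC, higher were 28 in Bupropion, 43 in Control, 3 in Desipramine and 5 in Probiotics, and lower 3 in Control and 33 in Probiotics. For LConly, higher was 1 in FT, and lower 3 in Bupropion and 4 in Desipramine. For mPOA, higher were 7 in Control, 6 in Desipramine and 7 in Probiotics, and lower 30 in Control and 3 in FT. For NACShell, higher were 3 in Bupropion, 5 in Control, 0 in Desipramine and 0 in FT, and lower 25 in Control, 17 in Desipramine and 3 in FT. For PLC, higher were 9 in Control, 12 in Desipramine, 7 in FT and 10 in Probiotics, and lower 8 in Bupropion, 28 in Control, 9 in Desipramine, 5 in FT and 21 in Probiotics. For Raphe, higher were 13 in FT, and lower 10 in Bupropion, 7 in Control, 1 in Desipramine, 6 in FT and 4 in Probiotics. For venDG, higher were 9 in Bupropion, 12 in Control, 13 in FT and 37 in Probiotics, and lower 17 in Bupropion, 18 in Control, 2 in FT and 1 in Probiotics.

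Single log2 values changed sign as follows. For Maltodextrin, in the 5 regions, without ILC and LConly, and without dorDG too, Psma5 gave 0.091, 0.086 and 0.11, Psmb3 0.053, 0.056 and 0.057, Psmb6 0.093, 0.092 and 0.098, and Psme3 0.039, 0.081 and 0.081, and Psme2 gave 0.037 in the 5 regions. Psma7 with FT gave 0.00044 without ILC and LConly. For Desipramine, library totals gave Psmb3 0.014, Psmb7 0.070, Psmd3 0.014 and Psmd8 0.041, and leaving out ILC and LConly gave Psmb3 0.0045. Psme2 with Desipramine gave 0.084 in the 5 regions, 0.086 without ILC and LConly and 0.065 without dorDG too. For Probiotics, Psmc4 gave -0.062 with pooled controls, -0.23 in the 5 regions and -0.055 without the 3 regions, and Psmd12 gave -0.064 and Psmd9 -0.0089 in the 5 regions. Psmc5 with Bupropion gave 0.080 with pooled controls, 0.064 in the 5 regions, 0.066 without ILC and LConly and 0.067 without the 3 regions. In region contrasts, Psmb11 gave -0.86 in ILC and 1.11 in LConly in FT, and -0.48 in dorDG in Probiotics. Psmc5 gave -0.024 in LConly in FT, and 0.20 in dorDG and 0.57 in venDG in Probiotics, and Psmd3 -0.041 in venDG in Bupropion. Psme4 gave -0.062 in NACShell in Bupropion and -0.031 in Desipramine, and 0.047 in PLC in Probiotics. Psmf1 in BLA gave -0.055 in Bupropion, -0.65 in Control, -0.024 in Desipramine, -0.25 in FT and -0.039 in Probiotics.

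Leaving out 1 replicate ended the call of Psma4 with Probiotics, Psmc5 with Bupropion, Psmd3 with Desipramine, Psme3 with FT and with Desipramine, Psmg4 with Maltodextrin, and Psmb11 in ILC, LConly and dorDG, while 1323 of 1350 such values for named members kept their side of the threshold.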
